A study of Mus musculus with 6 samples.

Results

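The cytosolic ribosomal proteins were described here as the genes whose symbol starts with Rpl or Rps followed by a digit, together with Rplp0, Rplp1, Rplp2 and Rpsa. S6 kinases, Rps19bp1 and symbols holding -ps were left out. The rule found 87 of the 16880 genes in the deposited table, 53 of the large and 34 of the small subunit. Of the 87 members, 77 are the standard proteins and 10 are copies or paralogs (Rpl22l1, Rpl32l, Rpl36al, Rpl37rt, Rpl39l, Rpl3l, Rpl7l1, Rps23rg1, Rps27l and Rps27rt). The members were compared between mouse cells kept for 24 h with 10 ng/mL of the inflammatory cytokine IL-1β (IL, n = 3 libraries) and cells given the same IL-1β plus 10 μM of NP-G2-044, an inhibitor of the actin-bundling protein fascin-1 (ILN, n = 3). The labels name the cells as ATDC5, a mouse chondrogenic line, whereas the methods of the study describe primary articular chondrocytes. The titles of the ILN libraries give NP-G2-044 and their treatment label gives NP-G2-047. Both groups carry IL-1β, and a group with DMSO alone was not analysed here, so each difference below is that of adding the inhibitor to IL-1β.

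Ribosomes are built from ribosomal RNA and a fixed set of proteins, each normally present in a single copy apart from the stalk proteins. The small subunit reads the mRNA and the large subunit joins amino acids and lets the new chain out through its exit tunnel. The mRNAs of these proteins start with a run of pyrimidines, the 5′ terminal oligopyrimidine (TOP) tract, through which mTORC1 and the RNA-binding protein Larp1 control their translation and stability. Cartilage cells depend on this machinery to make large amounts of matrix protein.

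The libraries held 16615824 to 16878164 reads in IL and 17529844 to 17735860 in ILN. The coefficient of variation across genes beyond read sampling, which edgeR terms biological, was 2.33%. For each pair of libraries, the squared difference was divided by the size expected from read sampling alone. This ratio lay between 1.539 and 2.393 for pairs inside IL or ILN, and between 133.1 and 135.8 for pairs across them. The methods call the libraries biological replicates without saying how cultures were separated. The p-values therefore measure the small spread between these libraries. Whether independent cultures would spread more was not tested. Of 10 chondrocyte markers 7 were listed and only Sox9 reached 1 TPM, and Col2a1 was at 0.217 TPM in IL and 0.04 TPM in ILN. Summed TPM of the chondrocyte markers ranged from 6.56 to 7.87 in IL and from 11.6 to 12.04 in ILN. That of 8 fibroblast markers ranged from 5343 to 5530 in IL and from 1044 to 1128 in ILN. Most of this sum was S100a4 (mean 4313 TPM in IL, 730 in ILN) and Col1a2 (1098 and 331 TPM). Col1a1, Col3a1 and Dcn were also lower in ILN, whereas Pdgfra was higher (2.36 and 8.69 TPM). The study reports Col2a1 and Dcn as raised by the inhibitor in its RNA sequencing, the opposite direction. Dcn was at low levels here (3.83 TPM in IL, 1.05 in ILN). For Sox9, Col1a1 and Col3a1 the direction given by the study was the same as here. Thy1 and Lum were too low to be tested. The 5 macrophage markers summed to 11.3 to 14.3 TPM in IL and 124 to 135 TPM in ILN through Cd68, with Ptprc at 0. The marker lists moved with the groups, and their part in the results on ribosomal proteins was not tested.

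Ribosomal protein mRNAs were among the most abundant in these cells. By mean TPM, a level scaled by gene length and library, 15 of the 20 most abundant genes and 70 of the 130 genes at 1000 TPM or more were members. The median member was at 2443 TPM, against 22.6 TPM over all genes tested. Rps26, a protein at the mRNA exit, stood highest among the members, at 16016, 14453 and 15504 TPM in IL and 14618, 15074 and 14445 TPM in ILN. It was followed by Rpl38 (11324, 11289 and 11229 TPM in IL, 13115, 12532 and 13115 in ILN) and Rpl41, the smallest ribosomal protein (11663, 11664 and 11471 TPM in IL, 11595, 11425 and 11505 in ILN). The Rpl38 values did not overlap between groups, and those of Rps26 and Rpl41 did. Among members that were tested, the lowest 3 were Rpl32l (52.5, 52.9 and 40.9 TPM in IL, 44.5, 52.3 and 58.6 in ILN), Rps6 and Rpl34. These levels depend on the length the quantification used. Comparing the deposited counts with the deposited FPKM gave an implied length of 63.1 bases for Rpl38 and 175 bases for Rps26, but 4860 bases for Rps15a, which stood at 86.7, 84.4 and 87.9 TPM in IL and 91, 95.8 and 89.3 TPM in ILN. The order of TPM levels between members is therefore tied to these lengths. For Rps6 and Rpl34 the level is also tied to reads listed under near-identical copies, described below.

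With NP-G2-044 the members shifted by small amounts, more often up than down. Of the 85 members with enough reads to be tested, 47 were higher in ILN, 13 were lower and 25 were not called (edgeR's quasi-likelihood test, adjusted p below 0.05 by Benjamini-Hochberg over 11983 genes). Over all genes tested, 80.0% were called, 40.2% as higher and 39.8% as lower. Among the members 70.6% were called, 55.3% higher and 15.3% lower. The median log2 fold change of the members was 0.11, against 0.0018 for all genes. The changes were narrow, from -0.42 to 0.72 on the log2 scale, with a median size of 0.13 against 0.39 for all genes. The median rise of the members called higher was 13.5%, members called lower fell by a median of 11.4%, and 49 of the 60 called members changed by less than 1.2-fold. None of the members (0 of 85) passed the additional cutoff of a log2 fold change above 1 in size. Of all genes, 16.6% passed it. DESeq2 and limma-voom also placed 0 members past both cutoffs. In edgeR 61 of the 85 members were at an unadjusted p below 0.05, against 9679 of the 11983 genes tested. Tested against a fold of 1.2 in place of no change, 3 members (Rpl22l1, Rpl12 and Rpl13a) were higher and 1 (Rpl37a) was lower, against 25.4% and 27.4% of all genes. In normalised CPM the 3 ILN libraries lay above the 3 IL libraries for 43 of the 85 members and below them for 13, against 40.7% and 40.1% of all genes, or 80.8% in either direction. In bulk RNA, fewer cells of a kind and less RNA per cell cannot be told apart, and the values are relative to all RNA in the library.

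**Figure D1:**
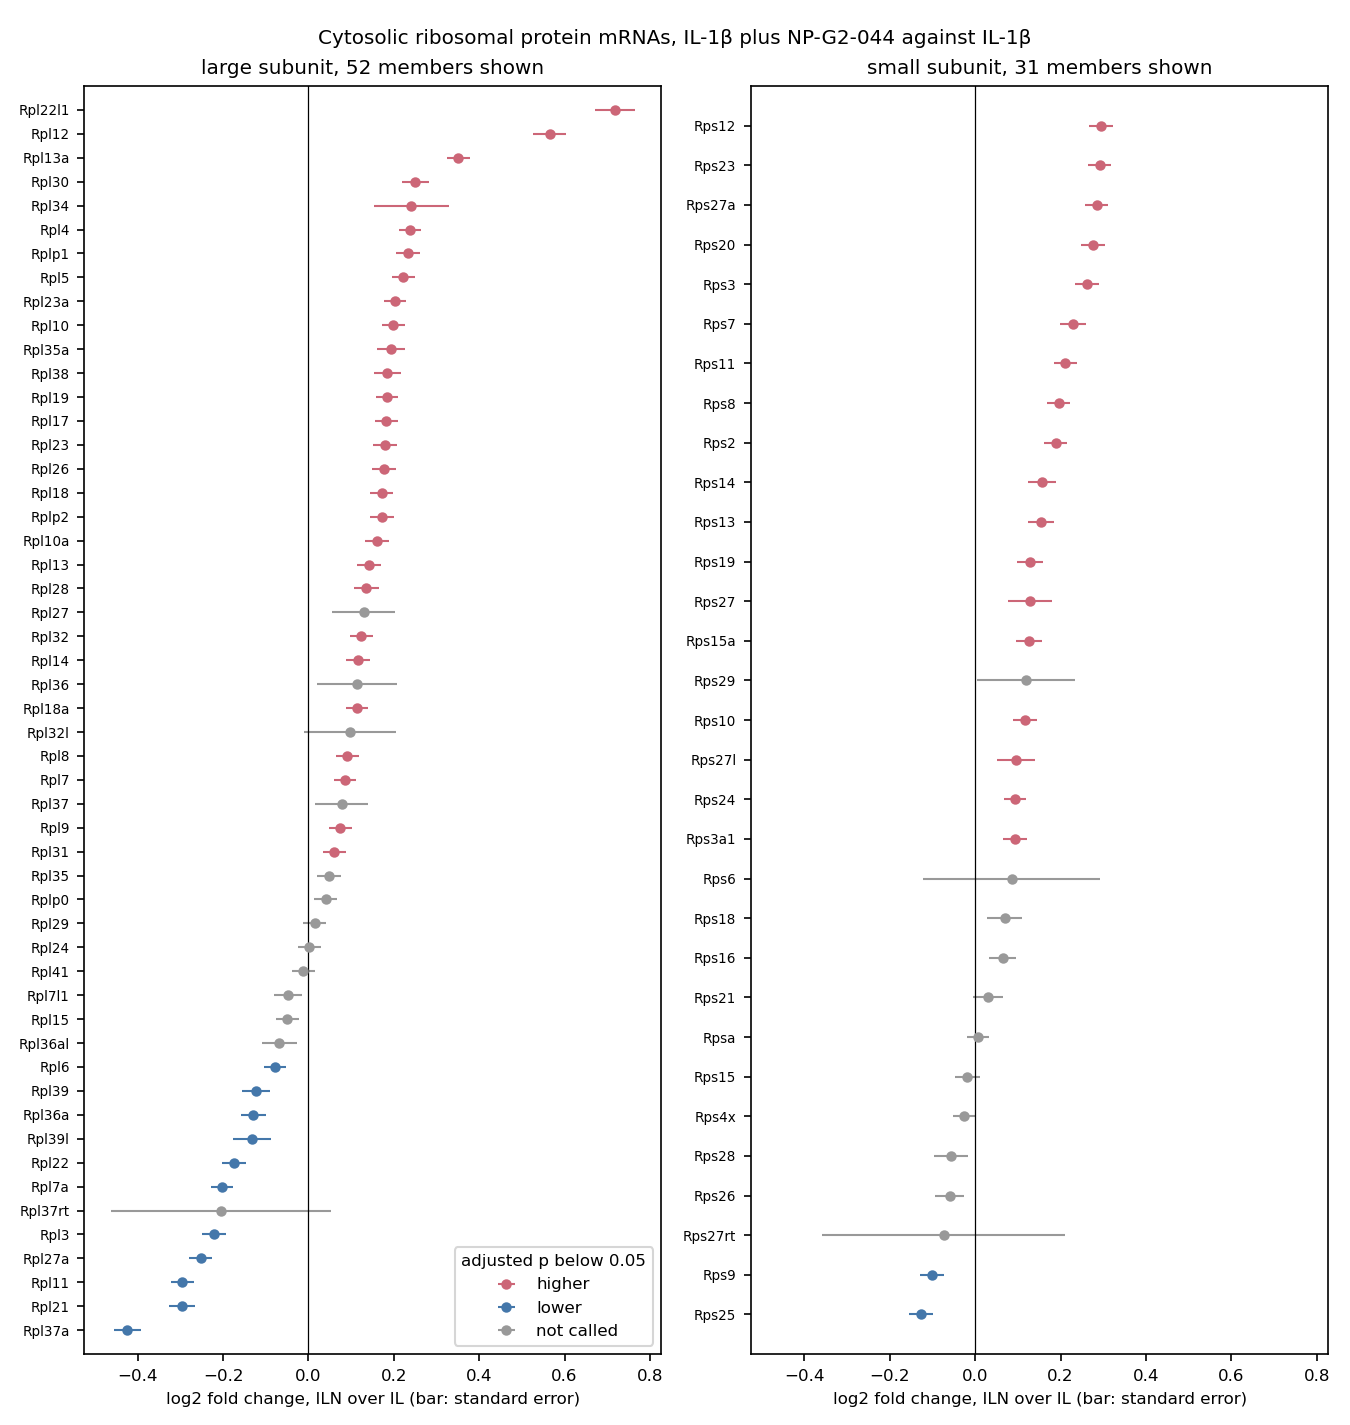
Log2 fold change of ILN over IL (x axis) for tested members of the large (left) and small subunit (right), with standard errors as bars and colour giving the call at adjusted p below 0.05. Rpl22l1 at 0.72 and Rpl12 at 0.57 stand apart at the top and Rpl37a at -0.42 at the bottom, and most points lie between 0 and 0.3.

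The members took a larger share of the reads in ILN. In IL they held 7.342%, 7.022% and 7.034% of the reads of each library, and in ILN 7.501%, 7.603% and 7.703%. The groups did not overlap, with means of 7.13% ± 0.181 and 7.60% ± 0.101 (SD, n = 3 each). As a share of summed TPM the members went from 26.0% ± 0.317 to 27.8% ± 0.202. Large subunit members went from 4.48% ± 0.111 to 4.75% ± 0.0587 of the reads and small subunit members from 2.65% ± 0.0707 to 2.86% ± 0.0429, given here as descriptions with no test. Left out of these shares are reads listed under -ps copies, mostly Rps6-ps4. They held 0.180% ± 0.00565 of the reads in IL and 0.209% ± 0.00354 in ILN.

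The 2 subunits had close medians. In the large subunit 28 of 52 members were higher and 11 lower, with a median log2 fold change of 0.11. In the small subunit 19 of 33 were higher and 2 lower, with a median of 0.12. In shares, 53.8% of the large and 57.6% of the small subunit members were higher and 21.2% and 6.06% lower, against 40.2% and 39.8% of all genes, and the difference between subunits was not tested. The 2 small subunit members called lower were Rps25 (-0.13, adjusted p = 4.52e-05) and Rps9 (-0.10, adjusted p = 8.87e-04), by edgeR's quasi-likelihood test. Among standard proteins alone the counts were 27 higher and 10 lower of 46 for the large subunit (median 0.11) and 18 higher and 2 lower of 31 for the small subunit (median 0.13). Reads of large over reads of small subunit members came to 1.686, 1.691 and 1.691 in IL and to 1.67, 1.658 and 1.662 in ILN. All 3 ILN ratios were below all 3 IL ratios, by a ratio of means of 0.985. The sums leave out Rps6-ps4 and Rpl34-ps1, under which most reads of the Rps6 and Rpl34 pairs were listed. In summed TPM the ratio was 1.43 ± 0.0119 in IL and 1.44 ± 0.00513 in ILN, with overlapping groups, so the direction of the subunit ratio depended on the unit.

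**Figure D2:**
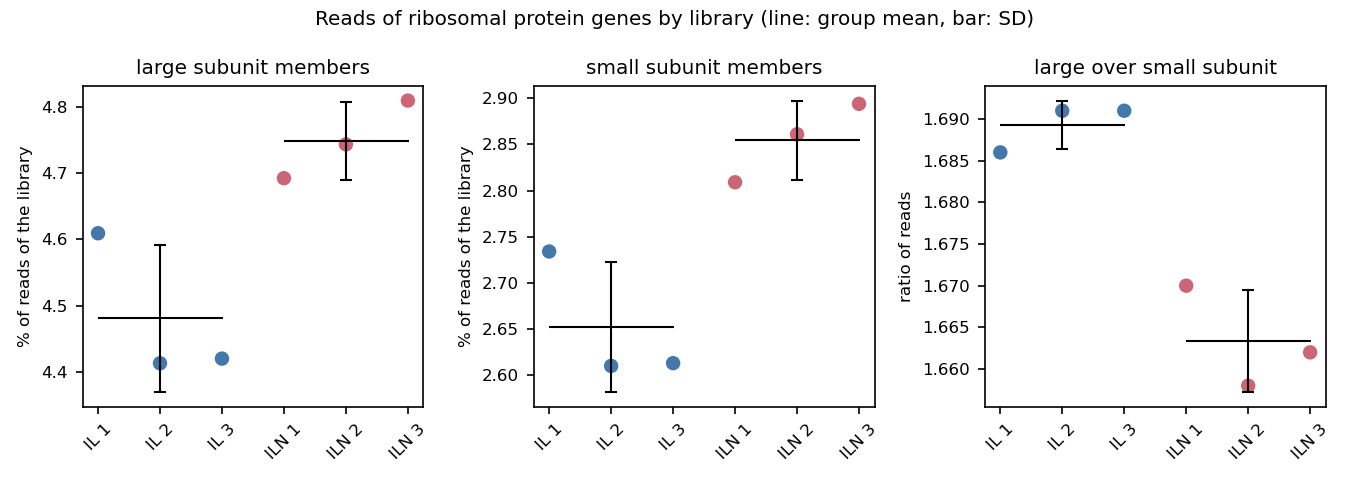
Share of each library's reads (y axes of the left and middle plots, %, not starting at 0) held by large and small subunit members, and the ratio of large to small subunit reads (right plot), for each library with the group mean as a line and the SD as a bar. Both shares are above IL in all 3 ILN libraries, and the ratio is between 1.686 and 1.691 in IL and between 1.658 and 1.67 in ILN.

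The start sites of 10 members are shown: 8 of the 12 genes with the largest rises and falls, the paralog Rpl22, and Rps6 as a gene whose reads are shared with a copy. RefSeq start sequences (GRCm38.p6) were matched for 67 of the 87 members. Of these, 10 had several starts, and the first listed was used. In GENCODE vM21 Rpl37a begins at base 72711290, past the end of its window, and Rpl12 at base 32961559, before its window. Each sequence runs 5′ to 3′ on the strand of the gene, from 30 bases before the annotated start to 30 after it, and capitals mark the longest run of at least 6 C or T letters that begins with C.
Rpl22l1 (chr3:28805478-28805537, plus strand): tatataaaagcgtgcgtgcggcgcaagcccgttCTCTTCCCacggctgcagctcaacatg
Rpl12 (chr2:32961682-32961741, plus strand): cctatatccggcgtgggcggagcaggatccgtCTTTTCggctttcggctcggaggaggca
Rpl13a (chr7:45128716-45128775, minus strand): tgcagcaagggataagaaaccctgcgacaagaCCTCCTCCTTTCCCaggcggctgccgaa
Rps12 (chr10:23787180-23787239, minus strand): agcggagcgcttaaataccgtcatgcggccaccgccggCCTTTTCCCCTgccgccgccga
Rpl37a (chr1:72711230-72711289, plus strand): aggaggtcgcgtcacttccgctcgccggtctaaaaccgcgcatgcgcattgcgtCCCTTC
Rpl11 (chr4:136053364-136053423, minus strand): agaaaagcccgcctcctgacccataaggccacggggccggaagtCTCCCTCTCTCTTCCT
Rpl27a (chr7:109519165-109519224, plus strand): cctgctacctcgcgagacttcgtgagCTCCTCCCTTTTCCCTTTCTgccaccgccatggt
Rpl7a (chr2:26910777-26910836, plus strand): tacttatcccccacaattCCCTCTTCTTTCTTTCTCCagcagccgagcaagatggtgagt
Rpl22 (chr4:152325696-152325755, plus strand): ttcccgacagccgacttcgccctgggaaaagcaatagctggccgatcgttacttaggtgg
Rps6 (chr4:86857338-86857397, minus strand): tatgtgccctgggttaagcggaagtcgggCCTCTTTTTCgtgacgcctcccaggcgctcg

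Such a run, searched on the strand of the gene only, was found in the window of 47 of 67 members (70.1%), against 40.1% of 27025 genes with a sequence and 39.2% of those tested. It was found in 27 of 33 members called higher and in 9 of 11 called lower, both 81.8%, and in 10 of 21 that were not called (47.6%). Long runs stood in genes that fell, such as Rpl27a (20 bases), Rpl7a (19 bases) and Rpl11 (at least 16 bases). They also stood in genes that rose, such as Rpl13a (14 bases) and Rps12 (11 bases). The runs of Rpl11 and Rpl37a reach the end of the window, so their full lengths are not shown. Rpl22 held none in this window, and Rpl22l1 held a run of 8 bases beginning at base 4 from the annotated start. The letters CCGGAA, the core of the sites that ETS factors bind, were present on either strand in the 250 bases before to 50 after the start of 33 of 67 members (49.3%), against 15.2% of all genes with a sequence and 29.5% of those tested. CCGGAA was present in 15 of 33 members called higher (45.5%), in 6 of 11 called lower (54.5%) and in 12 of 21 not called (57.1%). AAGATGG, the core bound by YY1, was found in 9 of 67 members (13.4%), against 6.48% of all genes and 7.44% of those tested, again on either strand. The TATA box letters TATAAA were found on either strand in 7 members (10.4%), against 14.2% of all genes and 6.61% of those tested. A window of letters does not show where transcription began in these cells.

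Rpl22 and its paralog Rpl22l1 moved in opposite directions. Rpl22 binds RNA on the outer face of the large subunit, and Rpl22l1 can take its place. Rpl22l1 stood at 294, 295 and 271 TPM in IL and 483, 464 and 466 TPM in ILN. Rpl22 stood at 259, 246 and 255 TPM in IL and 221, 218 and 219.8 TPM in ILN. Neither gene's values overlapped between the groups. Rpl22l1 rose with a log2 fold change of 0.72 (SE 0.047, adjusted p = 7.17e-20), the highest of all members, and Rpl22 fell with -0.17 (SE 0.029, adjusted p = 4.28e-07), both by edgeR's quasi-likelihood test. The TPM ratio of Rpl22l1 to Rpl22 was 1.14, 1.2 and 1.06 in IL and 2.19, 2.13 and 2.12 in ILN. The size of this ratio is tied to the implied lengths, 213 bases for Rpl22l1 and 1901 for Rpl22. In deposited reads Rpl22l1 held 684, 668 and 614 in IL and 1154, 1123 and 1124 in ILN. Rpl22 held more, with 5281, 4893 and 5162 in IL and 4724, 4765 and 4795 in ILN. The exons of Rpl22l1 overlap 159 bases of Gm33051 on the opposite strand. The sources used here do not say whether strand was used in counting, so reads of such overlaps cannot be assigned.

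**Figure D3:**
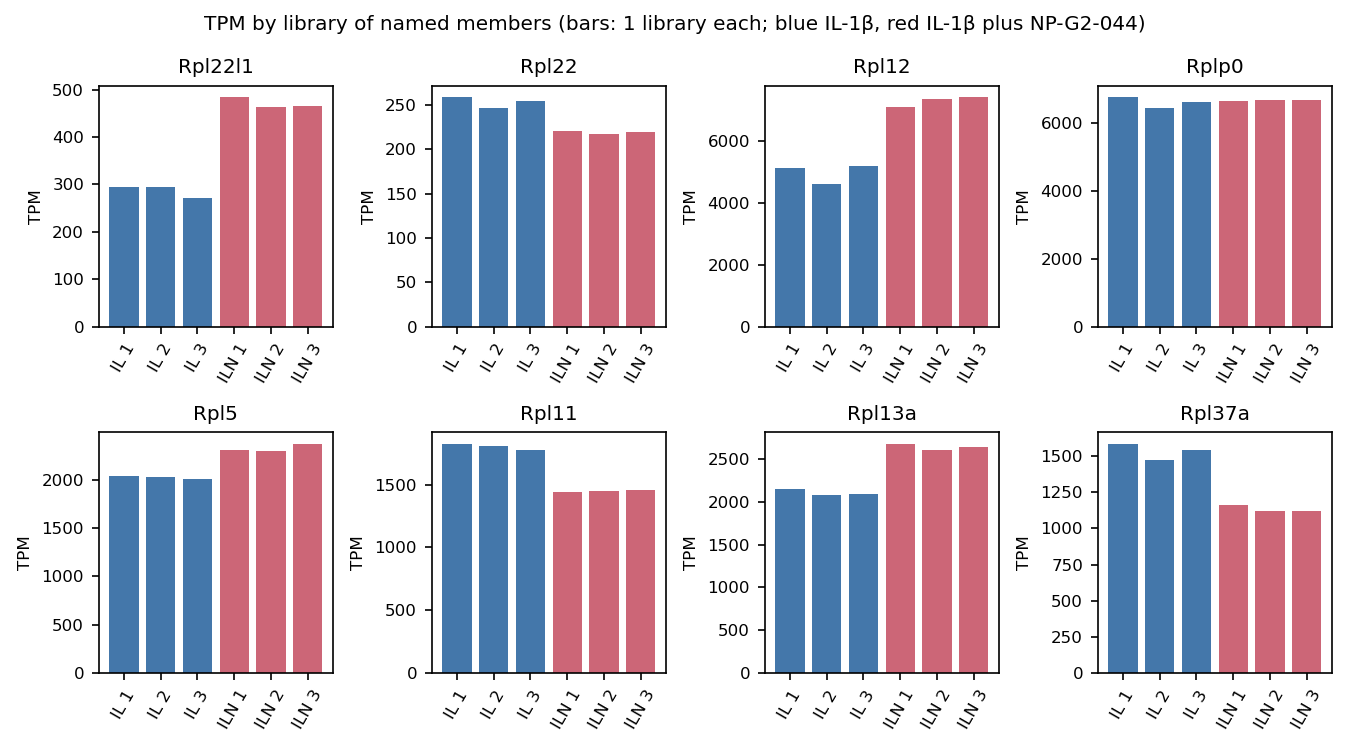
TPM (y axes, from 0) of 8 named members in each of the 3 IL (blue) and 3 ILN (red) libraries, 1 bar per library. Rpl22l1, Rpl12, Rpl5 and Rpl13a are higher in all 3 ILN libraries, Rpl22, Rpl11 and Rpl37a are lower in all 3, and Rplp0 overlaps.

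The stalk of the large subunit, which recruits the elongation factors, is made of Rplp0, Rplp1 and Rplp2 and stands on Rpl12. Rpl12 stood at 5110.3, 4610.4 and 5168 TPM in IL and 7102, 7338 and 7395 TPM in ILN, with every ILN library above every IL library, and rose by 0.57 on the log2 scale (SE 0.039, adjusted p = 2.51e-09, edgeR's quasi-likelihood test). This was the largest rise among standard members, 48.0%. The acidic protein Rplp1 stood at 6321, 6199.6 and 6541 TPM in IL and 7217, 7572 and 7602 in ILN and its partner Rplp2 at 2355, 2391 and 2455 in IL and 2628, 2722 and 2756 in ILN. Both were higher in each ILN library, by 0.23 (adjusted p = 5.36e-11) and 0.17 (adjusted p = 3.46e-07) in the edgeR test. Rplp0, the base of the stalk, was at 6740.1, 6436 and 6618 TPM in IL and 6643, 6657 and 6667 TPM in ILN. Its groups overlapped, and its log2 fold change was 0.04 (SE 0.026, adjusted p = 0.157) by the same edgeR test, and 0.064 (adjusted p = 0.019) without IL library 1. Exons of Rpl12 overlap 56 bases of Lrsam1 on the opposite strand and 130 bases of the small nucleolar RNA gene Snora65.

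Rpl5 and Rpl11 carry the 5S ribosomal RNA into the large subunit and, when free, bind the p53 regulator Mdm2. Rpl5 stood at 2041, 2028 and 2010.3 TPM in IL and 2308, 2299 and 2369 TPM in ILN. Rpl11 stood at 1823, 1806 and 1773 TPM in IL and 1437, 1447 and 1455 TPM in ILN. The groups were apart for both genes, but in opposite directions, Rpl5 being higher in ILN and Rpl11 lower. The log2 fold changes were 0.22 (SE 0.026, adjusted p = 5.21e-11) for Rpl5 and -0.30 (SE 0.027, adjusted p = 1.90e-14) for Rpl11 (edgeR's quasi-likelihood test). The exons of Rpl5 overlap 953 bases of Fam69a on the opposite strand.

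After Rpl22l1 and Rpl12, the largest rises were those of Rpl13a, Rps12, Rps23 and Rps27a. Rpl13a, which can also leave the ribosome to act in the GAIT complex of interferon-treated cells, stood at 2149, 2074 and 2089.5 TPM in IL and 2673, 2605 and 2639 TPM in ILN. Rps12 stood at 7184, 6886 and 6996 TPM in IL and 8693, 8307 and 8757 TPM in ILN. Rps23, a protein of the decoding centre, stood at 5378, 5458 and 5538 TPM in IL and 6622, 6510.3 and 6803 TPM in ILN. In these genes every ILN library lay above every IL library. Rps27a, made as a fusion with ubiquitin, stood at 1441, 1483 and 1460.4 TPM in IL and 1779, 1761 and 1741 TPM in ILN, again with no overlap. Log2 fold changes were 0.35 for Rpl13a (adjusted p = 3.38e-17), 0.29 for Rps12 (adjusted p = 1.24e-13), 0.29 for Rps23 (adjusted p = 1.27e-14) and 0.29 for Rps27a (adjusted p = 6.40e-14), with standard errors of 0.026 to 0.028, by edgeR's quasi-likelihood test. Exons of Rps27a overlap 160 bases of Clhc1 on the opposite strand, and those of Rps12 and Rpl13a hold small nucleolar RNA genes on the same strand. Gm45713, annotated as protein-coding on the same strand and not among the listed genes, shares 621 exon bases with Rpl13a.

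The 6 largest falls were all in the large subunit. Rpl37a, a zinc-finger protein, stood at 1584, 1470.2 and 1546 TPM in IL and 1163, 1121 and 1123 TPM in ILN. Rpl27a stood at 1495, 1419 and 1480 TPM in IL and 1202, 1225 and 1196 TPM in ILN. Rpl3, which lies close to the site of peptide bond formation, stood at 1793, 1796 and 1694 TPM in IL and 1474, 1505 and 1468 TPM in ILN. In each of these genes all ILN libraries lay below all IL libraries. Rpl7a stood at 4019.8, 4089 and 3994 TPM in IL and 3407, 3501 and 3454 TPM in ILN, and Rpl21 at 1155, 1127 and 1149 TPM in IL and 937, 852 and 944 TPM in ILN, also without overlap. By edgeR's quasi-likelihood test Rpl37a fell by 0.42 on the log2 scale (adjusted p = 2.09e-17, 25.4% less), Rpl27a by 0.25 (adjusted p = 8.80e-12), Rpl3 by 0.22 (adjusted p = 3.69e-10), Rpl7a by 0.20 (adjusted p = 9.71e-10) and Rpl21 by 0.30 (adjusted p = 1.67e-10). Rpl11, described above, was the remaining one. Exons of Rpl3, Rpl7a, Rpl21 and Rpl27a also hold small nucleolar RNA genes on the same strand. So do those of other named members, such as Rpl4, Rpl5, Rpl10, Rps20 and Rpsa. Rpl21 has the most annotated near-identical copies of any member, 57. One of them, BC004004 (98.55% identical in the coding sequence), was listed with more reads in ILN (1161, 1185 and 1173) than in IL (819, 792 and 799). Rpl21 itself was listed with 19707, 18668 and 19422 reads in IL and 16709, 15524 and 17217 in ILN. Ciapin1, with a stretch 96.25% identical to Rpl7a, held 1237, 1204 and 1202 reads in IL and 2124, 2008 and 2070 in ILN. Rpl7a held 25629, 25315 and 25103 reads in IL and 22554, 23640 and 23317 in ILN. The part of such copies in these falls was not tested.

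Among members singled out for their roles, Rpl10, placed last on the large subunit before it can work, stood at 4921, 4734 and 4886 TPM in IL and 5461, 5388 and 5615 TPM in ILN. It was higher in every ILN library, with a log2 fold change of 0.20 (SE 0.027, adjusted p = 3.21e-09) in the edgeR test. Rpsa, the laminin receptor homologue at the mRNA exit, stood at 3708, 3707 and 3672 TPM in IL and 3571, 3657 and 3676 TPM in ILN, with overlapping groups and a log2 fold change of 0.0062 (SE 0.026, adjusted p = 0.832) by edgeR. Of 8 proteins around the peptide exit, 6 were higher and 1, Rpl39, was lower (-0.12, adjusted p = 5.71e-04 by edgeR), with a median log2 fold change of 0.18. The largest of the rises was that of Rpl4 (0.24, adjusted p = 7.74e-12 by edgeR), from 2983, 2937 and 2934 TPM in IL to 3366, 3465 and 3413 TPM in ILN. Of 7 proteins around the mRNA entry and exit, 4 were higher and 0 lower, with a median of 0.16. Of 20 members whose human genes are mutated in Diamond-Blackfan anaemia, an inherited failure of red cell production, 12 were higher, 1 (Rpl11) was lower and 7 were not called, with a median of 0.12. Rps20 rose most in that list, by 0.28 on the log2 scale (adjusted p = 4.68e-13 by edgeR), from 280.3, 278 and 268 TPM in IL to 327, 322 and 329.6 TPM in ILN. These lists are drawn from the members, of which 55.3% were higher and 15.3% lower, against 40.2% and 39.8% of all genes. The shares called in either direction were 87.5%, 57.1% and 65.0% in turn, against 70.6% of the members and 80.0% of all genes.

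Among the other paralog pairs the TPM ratio was apart between groups for Rpl7 and overlapped for Rpl36a, Rpl39 and Rps27. The ratio of Rpl7l1 to Rpl7 was 0.0421 ± 0.0013 in IL and 0.0381 ± 0.0003 in ILN (SD, n = 3 each), without overlap. Its size is tied to the implied lengths, 2330 bases for Rpl7l1 and 658 for Rpl7. Rpl7 rose by 0.086 (adjusted p = 0.00319, edgeR) and Rpl7l1, a protein of ribosome assembly, was at -0.048 (adjusted p = 0.168). The ratio of Rpl36al to Rpl36a was 0.17 ± 0.006 and 0.177 ± 0.011, that of Rpl39l to Rpl39 was 0.0848 ± 0.0019 and 0.0829 ± 0.0012, and that of Rps27l to Rps27 was 0.0603 ± 0.0068 and 0.0582 ± 0.0016 in IL and ILN in turn. Rpl36a fell by 0.13 (adjusted p = 7.17e-05) and Rpl36al was at -0.068 (adjusted p = 0.126). Rpl39 and Rpl39l, known from testis, both fell, by 0.12 (adjusted p = 5.71e-04) and 0.13 (adjusted p = 0.00725), in edgeR's quasi-likelihood test. Rps27 rose by 0.13 (adjusted p = 0.0411) and Rps27l, a p53 target, by 0.10 (adjusted p = 0.0448). The Rps27 call was lost without IL library 1 (0.10, adjusted p = 0.243), IL library 2 (0.10, 0.122), ILN library 1 (0.12, 0.12) or ILN library 3 (0.093, 0.0637), and the Rps27l call without IL library 3 (0.061, 0.252) or ILN library 3 (0.062, 0.251), in edgeR fits. Rps4x has no listed paralog and was at -0.026 (adjusted p = 0.351). Rpl3l, the muscle paralog of Rpl3, had 2 to 5 reads per library and Rps23rg1 2 reads in 1 library, and neither was tested.

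Reads shared between near-identical copies limited some members. At 95% identity or more over at least 80% of the coding sequence, 77 members had annotated copies, 592 when added up over members. A copy that matched several members counts for each, and members that matched each other, such as Rps27 and Rps27rt, are included. Deposited counts were whole numbers in all 6 libraries for 68 members, not whole in 1 library for 6, and not whole in 5 or 6 libraries for 13. For Rps6, the target of the S6 kinases, the copy Rps6-ps4 has an identical coding sequence. Rps6 was listed with 692, 576 and 507 reads in IL and 510.07, 752 and 718 in ILN, with overlapping groups, while Rps6-ps4 held 25787, 24024 and 24729 reads in IL and 29910, 31238 and 31059 in ILN. Rps6 alone had a log2 fold change of 0.085 (SE 0.21, adjusted p = 0.73) by edgeR. Summed with its copy it had 26479, 24600 and 25236 reads in IL and 30420, 31990 and 31777 in ILN, and rose by 0.23 (SE 0.027, adjusted p = 6.41e-11 by edgeR). The sums do not overlap between the groups.

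Of the other 3 such pairs, Rpl34 rose by 0.24 alone (adjusted p = 0.0121), at 71.8, 66.5 and 58.8 TPM in IL and 66.2, 86 and 83.2 TPM in ILN with overlap, and by 0.13 with Rpl34-ps1 (adjusted p = 5.7e-05, edgeR). The call of Rpl34 alone was lost without IL library 3 (0.18, adjusted p = 0.1), ILN library 2 (0.18, 0.0951) or ILN library 3 (0.20, 0.077). Rpl37 with Rpl37rt was at 0.050 (adjusted p = 0.58), and Rps27 with Rps27rt rose by 0.11 (adjusted p = 0.0275), by edgeR's quasi-likelihood test. Rpl37rt (-0.21, SE 0.26) and Rps27rt (-0.073, SE 0.28) had the largest standard errors of all members, against a median of 0.028 for members.

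**Figure D4:**
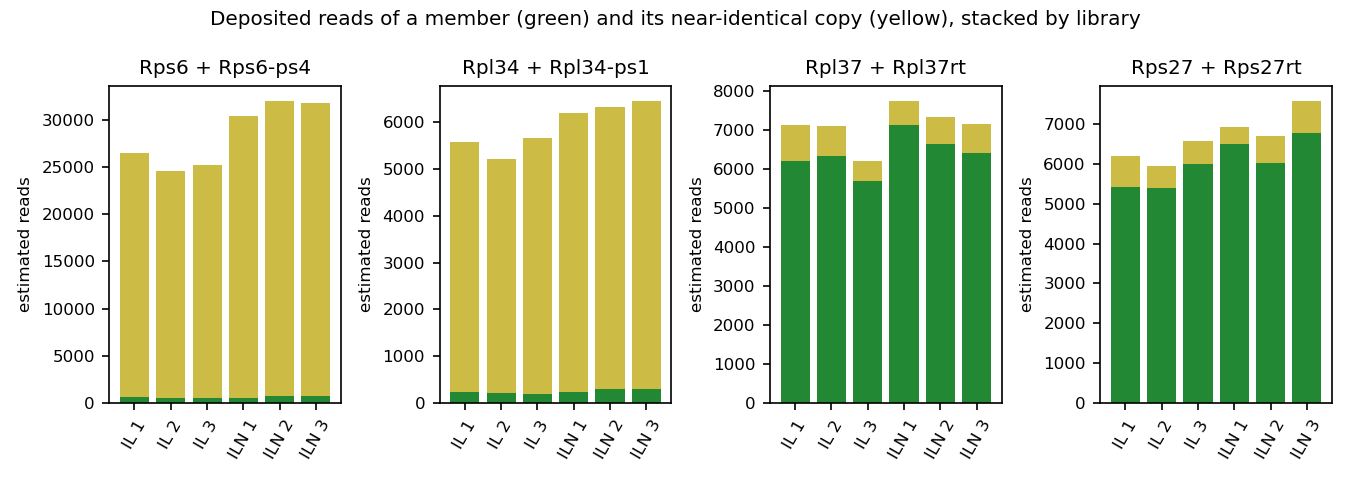
Deposited estimated reads (y axes, from 0) of Rps6, Rpl34, Rpl37 and Rps27 (green) with those of the near-identical copy named in each title (yellow) stacked on them, by library. Nearly all reads of the Rps6 and Rpl34 pairs are listed under the copy, 25787 and 5345 reads in IL library 1, and the summed reads are higher in all 3 ILN libraries for these pairs.

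The 25 members that were not called had log2 fold changes from -0.21 to 0.15, and their groups overlapped for 24 of them. Beside Rplp0, Rpsa, Rps6, Rps26, Rpl41, Rpl32l, Rps4x, Rpl7l1, Rpl36al, Rpl37, Rpl37rt and Rps27rt they included Rps15, Rps16, Rps18, Rps21, Rps28, Rps29, Rpl15, Rpl24, Rpl27, Rpl29, Rpl35 and Rpl36. Rpl36 was lowest in 1 IL library, at 2216, 2843 and 2616 TPM in IL and 2692, 2769 and 2852 TPM in ILN. In edgeR fits that left out 1 library several of these members were called. Without IL library 1, Rpl27 (0.18, adjusted p = 0.0167), Rpl35 (0.076, 0.0106), Rplp0, Rps16 (0.10, 0.000839) and Rps18 (0.12, 5.92e-05) were called higher. Without IL library 2, Rpl36 (0.20, adjusted p = 3.09e-05) was called higher and Rpl15 (-0.066, 0.0435) and Rps26 (-0.10, 0.00276) lower. Without IL library 3, Rps28 (-0.12, adjusted p = 0.00157) and Rpl37rt (-0.42, 0.000308) were called lower. Rps16 was also called higher without ILN library 1 (0.087, adjusted p = 0.0238), and Rpl27 without ILN library 2 (0.19, 0.000712). Closest to no change were Rpl24 (0.0016, SE 0.027) and Rpsa (0.0062, SE 0.026).

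Other genes of the pathway covered a wider range of log2 fold changes, from -3.17 to 3.04. Of ribosomal proteins outside the symbol rule, Rack1 was higher by 0.28 (adjusted p = 2.44e-14) and Fau by 0.11 (adjusted p = 3.92e-04), by edgeR's quasi-likelihood test. Of 13 genes listed as ribosomal protein chaperones and loaders, 9 were higher (69.2%) and 3 lower (23.1%), with a median log2 fold change of 0.35. Over all genes the shares were 40.2% and 39.8% and the median 0.0018. The list also holds factors of subunit maturation (Ltv1, Nmd3, Lsg1, Zfp622, Sbds and Efl1), all called higher. Among the rest, Pdcd2l, Pdcd2 and Bccip were higher, Heatr3, Grwd1 and Aamp lower, and Tsr2 was not called. Pdcd2l (16.7 ± 0.576 to 39.3 ± 2.32 TPM, SD, n = 3 each) rose by 1.26 (adjusted p = 4.51e-21) and Pdcd2, the chaperone of Rps2, by 1.04 (adjusted p = 8.94e-24) in the edgeR test. Aamp fell by 0.18 (adjusted p = 8.86e-06), and Grwd1, the chaperone of Rpl3, by 0.10 (adjusted p = 0.0216, edgeR).

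Of 18 other mRNAs with a TOP tract, 5 were higher (27.8%) and 8 lower (44.4%), with a median of -0.051, against 40.2% and 39.8% of all genes. Tpt1 (0.33, adjusted p = 5.70e-17) and the elongation factor Eef1b2 (0.23, adjusted p = 4.60e-11) rose most, and Hnrnpa1 (-0.86, adjusted p = 4.34e-34) and vimentin, Vim (-0.71, adjusted p = 1.00e-30), fell most in the edgeR test. In the list for mTORC1 and TOP control 9 of 17 were higher (52.9%) and 5 lower (29.4%), with a median of 0.28, and the 82.4% called in all is near the 80.0% of all genes. The mTORC1 inhibitor Sesn2 went from 6.7 ± 0.717 to 53.8 ± 0.76 TPM (3.04, adjusted p = 2.21e-43) and Eif4ebp1, a repressor of cap-dependent translation, from 277 ± 4.41 to 1390 ± 26.7 TPM (2.35, adjusted p = 1.44e-51). Deptor (-3.17, adjusted p = 1.55e-27) and Ddit4 (-0.48, adjusted p = 5.70e-05), both inhibitors of mTORC1, fell most (edgeR). Of 8 transcription factors named for ribosomal protein genes 3 were higher (37.5%) and 5 lower (62.5%), with a median of -0.18. Those that rose were Zbtb10 (0.54, adjusted p = 8.01e-11), Max (0.51, adjusted p = 2.31e-16) and Myc (0.49, adjusted p = 3.51e-22), and the largest falls were those of Rfx7 (-0.46, adjusted p = 2.46e-15) and Yy1 (-0.42, adjusted p = 3.38e-14), by edgeR. Of 78 mitochondrial ribosomal proteins 59 were called (75.6%, against 80.0% of all genes), 39 as higher and 20 as lower, with a median of 0.10, and 1 passed both cutoffs, which 16.6% of all genes passed.

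**Figure D5:**
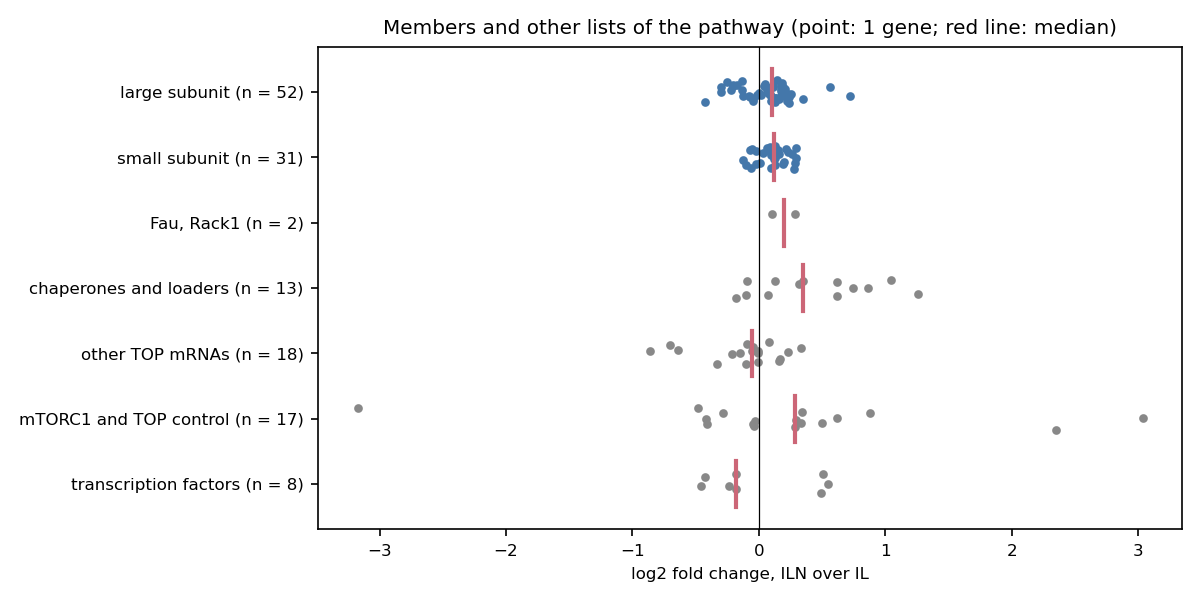
Log2 fold change of ILN over IL (x axis) for tested genes of the 2 subunits (blue) and of 5 other lists (grey), with the median as a red line. The 2 subunits lie between -0.42 and 0.72, and the list for mTORC1 and TOP control spreads from -3.17 to 3.04.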

How the data were processed

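RNA from 6 libraries (3 IL, 3 ILN) was extracted, sequenced and quantified by BGI, per the methods of the study. The authors deposited, for each gene and library, an estimated count, left without normalization, and the TPM and FPKM values, which the authors scaled by library and gene length. The submitters' processing notes name cutadapt, HISAT2 2.0 and StringTie and the build mm10. The sources used here do not say whether strand was used in counting. From 10.17% to 11.06% of the values per library were not whole, and counts were rounded.

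Genes were filtered with filterByExpr (minimum count of 10), normalized by TMM and compared with edgeR 4.0.16 (quasi-likelihood test, robust, no covariates) in R 4.3.3, with Benjamini-Hochberg adjustment over 11983 genes. The second cutoff of a log2 fold change above 1 in size was taken from the study. TPM was used for levels and FPKM for implied lengths. On simulated counts from these libraries (11918 genes), 74 of 100 genes changed by 1.2-fold and 99 of 100 changed by 2-fold were recovered, with 11 false calls. The simulation gave every gene the same variation of 2.33% and changed few genes, none with very low counts. In the data 80.0% of genes were called and the spread differed between genes, so these rates need not hold there. Near-identical copies, exon overlaps and coordinates came from GENCODE vM21, and start sequences from RefSeq.

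The members and lists were chosen with earlier results of these data known. Genes were named by rule: the stalk, 5S, paralog and singled-out members, the 6 largest rises and falls among called members at a mean of at least 10 TPM, the 3 highest and 3 lowest levels, members not called, and the 2 called genes with the largest change in each direction of every other list. A few further members (Rps25, Rps9, Rpl4, Rps20, Rps15a) were named after their values were seen. The results of a few genes are not reported here. Alternatives were RLE factors, library size alone, TMM without the members, DESeq2 1.42.0, limma-voom and limma 3.58.1 on log2(TPM + 1) or log2(TPM + 0.1), no filter or 10 CPM in 3 libraries, a test against a fold of 1.2, the replicate number as a block, and each library left out. Summing members with their copies was added after the data were seen. Same-numbered libraries did not deviate together (Pearson r of -0.0934, -0.0236 and 0.0259 over genes).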

Additional observations from a re-analysis of the deposited data

How the results depend on the processing

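The number of members called higher was 43 to 52 and lower 13 to 17 under every alternative that covered all tested members, apart from the test against a fold of 1.2, which called 3 members higher and 1 lower, and 3039 genes higher and 3281 lower in all. The ratio of large to small subunit reads, ILN over IL, was 0.985 and became 1.008 with summed TPM. Rps27 also lost its call with RLE factors, library size alone, TMM without the members, DESeq2, either TPM scale and the filter of 10 CPM (adjusted p = 0.0523 to 0.0936), Rps27l with RLE factors, DESeq2, limma-voom and that filter (0.0529 to 0.161), and Rpl34 with DESeq2 (0.0627). Calls were gained by Rpl15 (0.00961 to 0.0107) and Rpl7l1 (0.0303 to 0.0371), both lower, on either TPM scale and with that filter, by Rpl36al (0.033) and Rps26 (0.0253), both lower, with that filter, by Rpl27 (0.00654) and Rpl36 (0.0269), both higher, with limma-voom, and with no filter by Rpl27 (0.00196), Rpl37 (0.00983), Rps16 (0.0252) and Rps18 (0.0142), all higher, and Rps26 (0.0478), lower. Some members without a call changed sign. On the log2 scale Rpl24 was at -0.0037 with RLE factors and with DESeq2, -0.0005 with library size alone, -0.0137 on either TPM scale and -0.0256 with the filter of 10 CPM. Rpl29 was at -0.006 on either TPM scale and -0.0124 with that filter, and Rpsa at -0.024 and -0.021. With 1 library left out, the range was -0.0086 to 0.0114 for Rpl24, -0.0038 to 0.037 for Rpl29, -0.004 to 0.026 for Rpsa, -0.0242 to 0.1991 for Rpl32l, -0.036 to 0.0046 for Rpl41, -0.0509 to 0.008 for Rps15, -0.0239 to 0.0698 for Rps21, -0.268 to 0.1364 for Rps27rt and -0.0216 to 0.2375 for Rps6. The cause was not tested. With the replicate block, 50 members were higher and 13 lower, and Rps27l lost its call while Rpl27, Rpl36, Rpl37 and Rps29 were among those that gained one. The same numbers do not mark a pairing in the labels. Shared reads limit members with identical copies.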
